A study of Mus musculus with 2 samples.

Results

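Shared DNase I hypersensitive sites without a footprint are the 758 of 25283 shared sites on the autosomes (3%) that no deposited footprint interval of either library overlapped. A DNase I hypersensitive site (DHS) is a stretch of chromatin that the enzyme DNase I cuts more often than its surroundings. A DHS was shared where overlapping calls of both libraries, taken from each library's stricter call list, merged into 1 interval. A footprint is a short run of bases inside accessible chromatin that is cut less than its neighbours. Tissue was left cerebral cortex, taken at postnatal day 4 from females of the F1 hybrid strain B6CASTF1/J, with 1 library for each of 2 animals that the labels number separately. Both libraries belong to the same group, replicate 1 and replicate 2, so nothing was compared between conditions and the regions are not replicates. The DHSs were chosen by the footprint calls of both libraries, so the absence of footprints is the choice and not a result. In the gene lists, 8 of 13 cortical neuron, 6 of 9 progenitor, 4 of 8 astrocyte and 3 of 7 oligodendrocyte lineage genes had a shared promoter DHS. So had 2 of 8 interneuron, 2 of 7 vessel, 0 of 7 microglia, 0 of 5 hepatocyte, 1 of 5 muscle and 11 of 11 housekeeping genes. Over all autosomal protein-coding genes it was 11830 of 20780, so the cortical neuron count was near that of genes in general.

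Transcription factors that stay on DNA long enough can shield their site from DNase I and leave a footprint, while the bases around them stay open to the enzyme. CTCF, an insulator protein with a long recognition sequence, is known for leaving clear footprints, and factors that bind briefly are known for leaving weak ones or none. At active promoters the nucleosome-depleted region lies over the transcription start site (TSS), and the first positioned nucleosomes lie just downstream of it. Whether a footprint can be called also depends on how many cuts a region holds. Signal is therefore given first, and most other comparisons were made at equal signal.

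Sequence is shown for 2 strong footprint-free DHSs and for 3 other shared DHSs whose signal was nearly equal to that of a strong footprint-free DHS. Bases under a footprint of either library are in capitals, so the first sequences have none. The Hspd1 sequence lies in an intron 413 bp downstream of the nearest TSS, and the Eif4b sequence in an intron 527 bp downstream. The Ttc9b sequence lies in coding sequence, the Rtkn2 sequence in an intron, and the Tmem182 sequence in intergenic DNA 73662 bp from the nearest TSS, that of Tmem182.
Hspd1, no footprint, chr1:55087461-55087760 (mm10, + strand): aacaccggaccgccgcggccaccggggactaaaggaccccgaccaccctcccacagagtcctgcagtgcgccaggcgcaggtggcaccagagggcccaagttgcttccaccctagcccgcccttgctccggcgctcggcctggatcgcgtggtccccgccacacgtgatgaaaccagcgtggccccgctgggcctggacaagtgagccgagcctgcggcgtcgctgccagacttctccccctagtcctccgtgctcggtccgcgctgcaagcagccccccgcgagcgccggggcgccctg
Eif4b, no footprint, chr15:102074241-102074540 (mm10, + strand): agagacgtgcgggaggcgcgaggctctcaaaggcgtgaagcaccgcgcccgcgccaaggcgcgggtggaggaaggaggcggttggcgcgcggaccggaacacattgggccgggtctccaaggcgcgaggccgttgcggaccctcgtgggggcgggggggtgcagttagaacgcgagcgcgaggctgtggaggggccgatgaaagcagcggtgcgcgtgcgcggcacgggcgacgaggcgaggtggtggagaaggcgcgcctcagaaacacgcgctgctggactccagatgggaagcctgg
Rtkn2, partner of Eif4b in signal, chr10:67998222-67998500 (mm10, + strand): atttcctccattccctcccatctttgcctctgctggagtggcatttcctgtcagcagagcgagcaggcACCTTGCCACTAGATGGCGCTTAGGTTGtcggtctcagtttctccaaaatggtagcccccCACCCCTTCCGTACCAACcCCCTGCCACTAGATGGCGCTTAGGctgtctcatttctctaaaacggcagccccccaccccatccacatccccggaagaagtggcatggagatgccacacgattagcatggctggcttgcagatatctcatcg
Ttc9b, partner of the Tmem259 DHS in signal, chr7:27653931-27654230 (mm10, + strand): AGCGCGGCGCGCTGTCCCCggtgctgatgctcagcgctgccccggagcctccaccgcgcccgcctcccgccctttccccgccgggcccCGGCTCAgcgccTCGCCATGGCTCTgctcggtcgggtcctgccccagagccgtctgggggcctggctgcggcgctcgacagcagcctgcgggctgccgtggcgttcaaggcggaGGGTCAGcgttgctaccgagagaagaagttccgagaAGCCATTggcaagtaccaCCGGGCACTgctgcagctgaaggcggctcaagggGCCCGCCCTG
Tmem182, partner of the U2af2 DHS in signal, chr1:40879165-40879360 (mm10, + strand): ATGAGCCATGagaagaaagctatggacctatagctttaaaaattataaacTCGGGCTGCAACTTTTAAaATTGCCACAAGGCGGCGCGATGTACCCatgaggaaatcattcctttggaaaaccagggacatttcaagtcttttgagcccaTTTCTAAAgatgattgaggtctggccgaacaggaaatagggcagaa
The Hspd1 stretch had 72.0% G and C with 31 CpG dinucleotides, and the Eif4b stretch 71.3% with 41. The Rtkn2 stretch held 70 footprint bases in 3 merged runs and matched the CTCF consensus. The Ttc9b stretch held 72 such bases in 7 runs and the Tmem182 stretch 63 in 4 runs. The letters are those of the reference, and the alleles of the other parental strain were not read.

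Footprint-free DHSs were weak in both libraries. Their median signal, the tag density the authors gave each call, was 0.686 in replicate 1 and 1.09 in replicate 2, against 1.15 and 2.39 over all shared DHSs. The highest values among them were 1.54 and 3.13. In each library the values under 100 steps, 93 and 91 different ones, were whole multiples (within 0.05) of a step of 0.00467 in replicate 1 and 0.00788 in replicate 2. The median footprint-free DHS held 147 and 138 such steps against 247 and 304. If a step is 1 tag per 1000000, the libraries held 214 and 127 times 1000000 tags, which the headers do not state.

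The share of shared DHSs without a footprint was highest in the weakest decile of signal and 0 in the strongest. In the weakest decile by replicate 1 it was 11.4% (293 of 2560, exact 95% interval 10.2 to 12.7%), and by replicate 2 it was 11.8% (303 of 2564, 10.6 to 13.1%). In decile 5 it was 1.52% by replicate 1 and 0.718% by replicate 2. None of the 3 strongest deciles of either library held any, which for the 2522 DHSs of the strongest decile by replicate 1 allows a share of up to 0.119%. These intervals cover counting error only. Because of this trend most comparisons that follow set the footprint-free DHSs against other shared DHSs at matched signal. These others were weighted to the same joint distribution of signal in both libraries. Shares over all shared DHSs and counts by gene, chromosome or window are not matched. Nor are comparisons among the footprint-free DHSs or within a single gene. For the weighting, 745 of the 758 shared a signal bin with other DHSs and 13 did not, and 13970 others carried weight. After weighting the medians were 0.691 in both sets in replicate 1, and 1.09 in both in replicate 2.

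**Figure D1:**
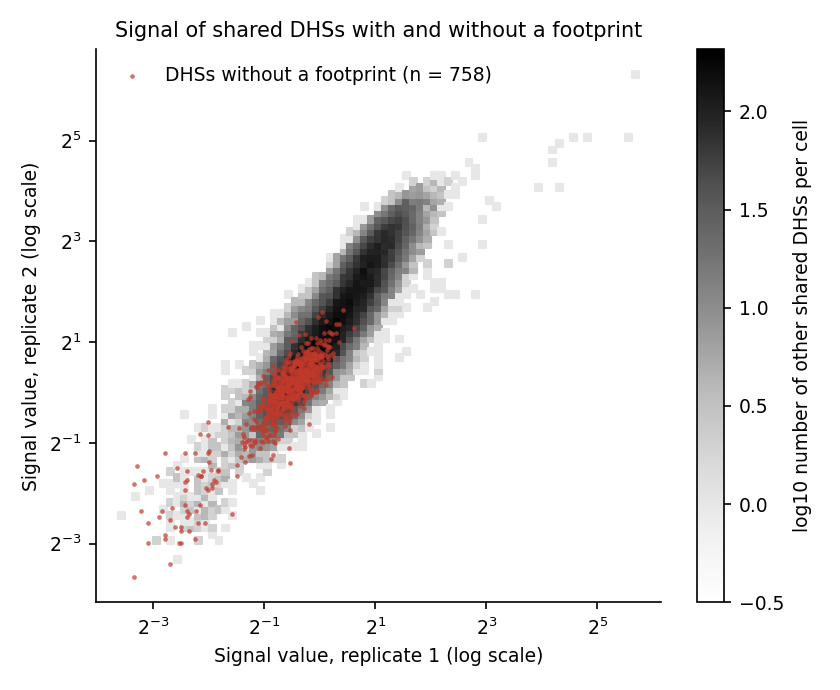
Signal value of each shared DHS in replicate 1 (x axis) and replicate 2 (y axis), both on log scales without a stated unit. Grey squares count other shared DHSs and red points are the 758 DHSs without a footprint, which lie in the lower part of the cloud, up to 1.54 and 3.13.

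**Figure D2:**
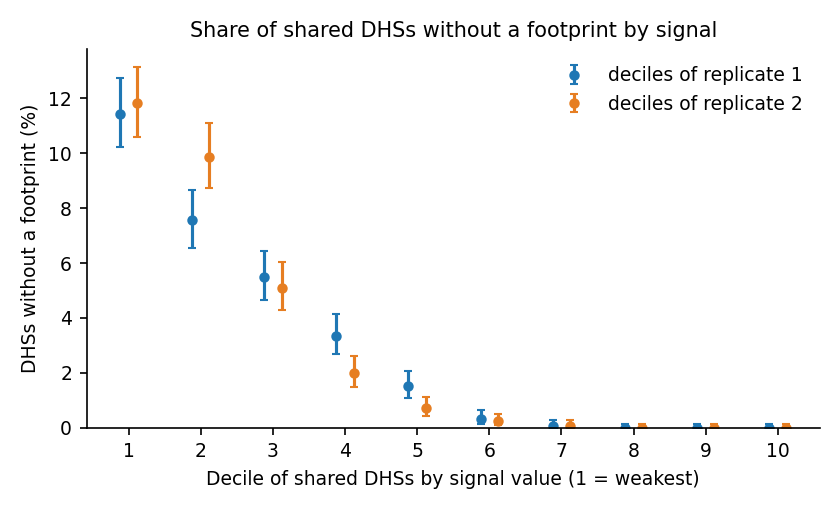
Share of shared DHSs without a footprint (y axis, percent) in each decile by signal value (x axis), for the deciles of replicate 1 and of replicate 2. Bars are exact 95% binomial intervals, and the share is 11.4% and 11.8% in the weakest decile and 0 in the 3 strongest.

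Most footprint-free DHSs lay at promoters. A DHS was counted there when within 1 kb of the TSS of a protein-coding gene, and otherwise as exonic, intronic or intergenic, in that order. At promoters lay 79.3% of the footprint-free DHSs (591 of 745, 76.2 to 82.2%), against 35.3% of the others at matched signal and 55.8% of all shared DHSs. With the calls and footprints of replicate 2 alone it was 45.2% against 17.5%, and with those of replicate 1 alone 17.2% against 9.02%. Exons held 5.64% against 10.2%, introns 9.40% against 24.4%, and intergenic DNA 5.64% against 30.2%. The interval for each class excluded the matched share. By the base at the centre, 58.9% were in an intron against 39.5% at matched signal, and 14.6% in coding sequence against 9.08%. The footprint-free DHSs were also wider, with a median of 340 bp against 258 bp at matched signal, but within promoters the medians were 358 bp and 380 bp. With width added to the matching, 82.6% against 48.4% lay at promoters. With each library's longer, lenient call list 1612 DHSs were footprint-free, and 49.97% of them against 21.9% lay at promoters.

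**Figure D3:**
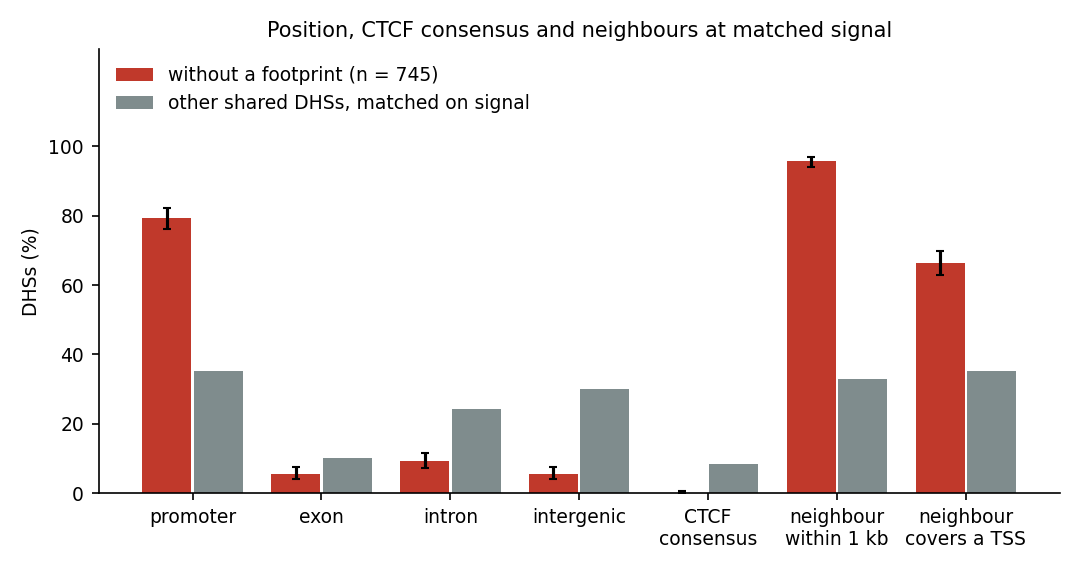
Percent of DHSs (y axis) in each genomic class, with a CTCF consensus in the central 150 bp, with another shared DHS within 1 kb, and with a nearest shared DHS that covers a TSS. Red bars are the 745 footprint-free DHSs with exact 95% intervals and grey bars are other shared DHSs at matched signal, and the red bars are higher for promoters (79.3% against 35.3%) and neighbours (95.7% against 33.0%).

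At promoters most footprint-free DHSs lay beside the TSS and not over it, mostly on its downstream side. Downstream of the nearest TSS lay 80.5% of those that could be matched, and also 69.8% of other promoter DHSs at matched signal. The median position of the centre was 479 bp downstream for the 593 promoter DHSs without a footprint, against 124 bp downstream for other promoter DHSs at matched signal. Between 400 and 700 bp downstream lay 249 of the 593 (42.0%, 38 to 46.1%). In the same band lay 16% of the other promoter DHSs at matched signal. Only 10.9% of the 585 that could be matched covered a TSS themselves (8.53 to 13.8%), against 47.0%. Within 250 bp of a TSS were 14.4% against 51.4%. Of these promoter DHSs 61.5% had their centre in an intron, against 36.2%, and 10.1% against 30.0% in a UTR. The 2 sets of promoter DHSs were close in base composition, with a median GC of 64.7% against 66.0% in the central 150 bp and a ratio of observed to expected CpG of 0.75 against 0.74.

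**Figure D4:**
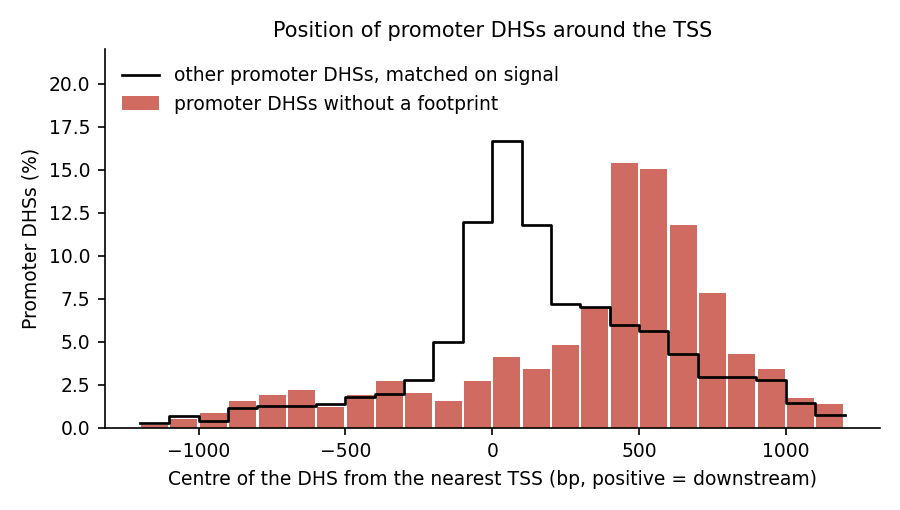
Position of the centre of promoter DHSs relative to the nearest TSS (x axis, bp, positive downstream) as percent of promoter DHSs (y axis) in 100 bp bins. Red bars are the 585 footprint-free promoter DHSs that could be matched and the black line other promoter DHSs at matched signal; the bars are highest from 400 to 700 bp and the line from -100 to 200 bp.

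Nearly every footprint-free DHS had another shared DHS close by. Another lay within 1 kb of 721 of the 758 (95.1%, 93.3 to 96.5%). Among those that could be matched the share was 95.7%, against 33.0% of other shared DHSs at matched signal. The median gap was 220 bp, against 11200 bp. The neighbour was the stronger DHS in both libraries in 680 of the 721 (94.3%). Its signal was a median of 2.41 times that of the footprint-free DHS in replicate 1, with quartiles of 1.85 and 3.16, and 4.59 times in replicate 2, with quartiles of 2.69 and 6.78. The neighbours held a median of 5 footprints in replicate 1 and 7 in replicate 2. Close neighbours of other shared DHSs at matched signal held 3 and 4. The neighbours themselves were not matched on signal. Among DHSs with a close neighbour that could be matched, median neighbour signals were 1.80 and 5.37, against 0.864 and 1.58. Of the 721 neighbours, 19 (2.64%) were footprint-free as well. The share was 3% over all shared DHSs and 9.30% over the 7752 that, like these neighbours, had another within 1 kb. These shares are not matched on signal. Of the 583 promoter DHSs with a close neighbour, 476 had one that covered a TSS, and 388 of those 476 lay downstream of the TSS nearest to their own centre. Of the 165 footprint-free DHSs away from promoters, 138 (83.6%) had a neighbour within 1 kb. Among the 154 of them that could be matched it was 85.1%, against 34.1% at matched signal. Of the 165, 15 (9.09%) had a nearest DHS that covered a TSS. That share was lower than the 23.0% at matched signal and the 30.4% of all shared DHSs away from promoters. By definition these DHSs have no TSS within 1 kb, so a close neighbour can seldom cover one. The lower share thus goes with having close neighbours and is no separate result. With the lenient lists 69.3% against 35.3% had a neighbour within 1 kb.

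The comparison was repeated among DHSs with a neighbour within 1 kb, matched on signal. There 81.8% of the footprint-free DHSs were at promoters against 63.0%, and 94.9% had a stronger neighbour against 62.8%. The neighbour covered a TSS in 67.5% against 37.7%, but away from promoters in 3.91% against 4.41%. The bases of the gap also differed. A median of 95% of the gap was under a cut-rate false discovery rate of 0.001 in replicate 1, against 16.5%, and 100% against 51.8% in replicate 2. The whole gap was under that limit in both libraries, or there was no gap, for 300 of the 721 (41.6%). This was against 16.9% at matched signal and 35.2% of all shared DHSs with such a neighbour. The 300 include the 15 of the 721 that touched their neighbour. Within 500 bp of these footprint-free DHSs there was a median of 3 footprints in replicate 1 and 5 in replicate 2, against 2 and 3 at matched signal. Without the requirement of a neighbour the medians at matched signal were 0 and 1. For 629 of the 758 both libraries had a footprint within 500 bp, and for 46 neither had. The median distance to the nearest footprint was 204 bp. The part of call splitting in these values was not tested beyond joining calls. With calls up to 150 bp apart joined, 487 DHSs were footprint-free and 82.3% of those that could be matched lay at promoters, against 32.3%.

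**Figure D5:**
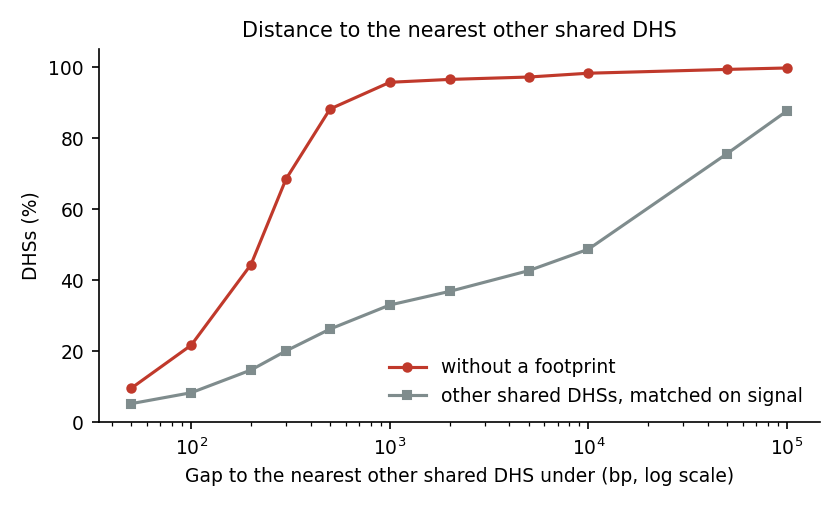
Cumulative percent of DHSs (y axis) whose gap to the nearest other shared DHS is under the distance on the x axis (bp, log scale). Red is footprint-free DHSs (n = 745) and grey other shared DHSs at matched signal; under 300 bp the curves are at 68.5% and 20.1%, and under 1000 bp at 95.7% and 33.0%.

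The 8 strongest footprint-free DHSs, by mean rank over both libraries, all had a stronger neighbour, and 4 of the 8 lay downstream of the nearest TSS. At Tmem259, a membrane protein gene, the DHS at chr10:79984241-79984580 was centred 81 bp upstream of the nearest TSS and itself covered it. This DHS had a signal of 1.34 in replicate 1 and 3.13 in replicate 2. Its neighbour 100 bp away covered no TSS and had 1.77 and 7.01. At Pank3, which encodes a pantothenate kinase of coenzyme A synthesis, the intronic DHS at chr11:35769881-35770180 lay 547 bp downstream of the TSS with 1.54 and 2.43. Its neighbour covered the TSS, with 1.74 and 8.51. At both genes the excess of the neighbour was larger in replicate 2.

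The DHS of Hspd1, the gene of the mitochondrial chaperonin HSP60, had 1.28 and 2.57 beside a neighbour of 2.63 and 10.3 over a TSS, with 5 and 11 footprints. At Ube3a, the ubiquitin ligase gene imprinted in neurons, the DHS at chr7:59229301-59229660 lay 679 bp downstream with 1.22 and 2.58, and its neighbour had 2.72 and 10.9. At Eif4b, a translation initiation factor gene, the DHS had 1.17 and 2.22 and the neighbour over the TSS 3.04 and 11.2. All 3 had at least 2 footprints within 500 bp in each library, outside the DHS itself.

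At Dnpep, an aspartyl aminopeptidase gene, the DHS at chr1:75316941-75317200 was centred in a UTR 78 bp upstream of a TSS and itself covered it. This DHS had 1.15 and 2.26. Its neighbour had the highest replicate 2 signal of these 8 neighbours, 15.5. At Gtf2ird2, of the general transcription factor II-I repeat family, the DHS at chr5:134183861-134184120 was centred 36 bp upstream of a TSS and itself covered it. This DHS had 1.12 and 2.28. Its neighbour, 80 bp away, covered no TSS and had 2.75 and 10.7. The only one of the 8 outside the promoter class was in a coding exon nearest to the TSS of U2af2, a splicing factor gene, at chr7:5060241-5060700, with 1.22 and 2.25. In all 8 the neighbour was stronger in both libraries.

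The other shared DHSs nearest to these 8 in signal held between 3 and 7 footprints in replicate 1 and between 3 and 13 in replicate 2. They were drawn from shared DHSs with a footprint, so that they hold any is the choice and not a result. The Pank1 promoter DHS, with 1.28 and 2.57, nearly equalled the Hspd1 DHS in signal and had 3 and 13 footprints over 142 bases. The Rtkn2 intron DHS printed above had 1.17 and 2.21 and 3 footprints in each library, and no other shared DHS within 18 kb. Of these 8 partners 4 lay at promoters, and 5 had no other shared DHS within 1 kb.

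In base composition the footprint-free DHSs were richer in G and C than others at matched signal, and close to shared DHSs as a whole. The median GC of the central 150 bp was 62.7% (62.0 to 63.3%) against 56.7%, and 62.0% over all shared DHSs. The median CpG ratio was 0.70 against 0.46, and 0.68 over all. A CpG ratio above 0.6 was found in 60.4% against 35.7%, and in 57.4% of all. The difference was smaller within these groups. Among DHSs with a neighbour within 1 kb the medians were 62.7% against 62.0% GC. Away from promoters they were 56.3% against 54.0%, and with width added to the matching 63.3% against 60.0%.

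A CTCF consensus was nearly absent. It was searched with 15 other consensus sequences, on both strands, in the central 150 bp. A match was found in 1 of 745 footprint-free DHSs (0.134%, 0.00340 to 0.746%), against 8.31% of other shared DHSs at matched signal and 8.62% of all shared DHSs. In the whole interval, which was wider in the footprint-free set, it was 2 of 745 against 8.95%. Away from promoters 0 of 154 had one, which allows a share of up to 1.95%, against 8.20%. That contrast did not hold apart from neighbours. Among DHSs away from promoters with a neighbour within 1 kb, no footprint-free DHS had a match. This allows a share of up to 2.34%, against 2.27% at matched signal, so the limit there included the matched share. Matches were rarer in promoters and near neighbours in any case: among DHSs with a neighbour within 1 kb the shares were 0.141% against 1.33%. Within promoters they were 0.171% (0.00433 to 0.949%) against 0.939%, so the interval there included the matched share. It did so too among promoter DHSs with a neighbour within 1 kb, with 0.173% (0.00439 to 0.962%) against 0.505%. With width added to the matching they were 0.142% against 3.36%. A match is a description of letters and not of binding.

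The single footprint-free DHS with a central CTCF match lay in an intron of Dcaf15, a gene for a substrate receptor of a ubiquitin ligase, with its centre 1015 bp downstream of the TSS. It is printed here with the match in capitals.
Dcaf15, no footprint, chr8:84103654-84103840 (mm10, + strand): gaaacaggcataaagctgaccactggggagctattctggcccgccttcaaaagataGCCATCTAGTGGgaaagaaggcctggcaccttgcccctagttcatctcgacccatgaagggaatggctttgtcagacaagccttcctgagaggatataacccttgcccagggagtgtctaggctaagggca
Its signal was 0.420 in replicate 1 and 0.488 in replicate 2, below the medians of the footprint-free DHSs in both libraries. Its neighbour 820 bp away had 2.41 and 7.23.

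The other consensus sequences differed less. GGGCGGG, the core of SP and KLF sites, was found in 13.3% (10.9 to 15.9%) against 9.80% at matched signal and 19.95% of all shared DHSs. GCGTGGG, an EGR core, was in 4.97% (3.52 to 6.78%) against 2.97%, and 4.16% of all. These GC-rich sequences were the only ones of the 16 whose share at matched signal lay below the interval of the footprint-free DHSs. Among promoter DHSs the direction turned for the SP and KLF core, 15% (12.2 to 18.2%) against 20.2%, and EGR was nearly equal at 5.47% against 5.41%.

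Several sequences were less frequent than at matched signal. CAGATGG, an E-box of NEUROD factors, which drive neuronal differentiation, was in 2.15% (1.23 to 3.46%) against 4.79%, and 3.77% of all shared DHSs. TATAAA was in 0.940% against 2.60%, and 2.00% of all. GCCAAT, the NFY core, was in 3.09% (1.97 to 4.6%) against 5.00%, and 8.18% of all. ATGCAAAT, the POU octamer, was in 0 of 745, which allows up to 0.403%, against 0.700% and 0.534% of all. Within promoters the intervals included the matched shares of all 4. There the E-box was in 1.71% against 2.02%, TATAAA in 0.855% against 1.23%, GCCAAT in 3.08% against 4.25% and the octamer in 0 of 585 against 0.374%.

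The remaining sequences lay within the interval of the footprint-free DHSs at matched signal. CCGGAAG (ETS) was in 3.09% against 2.02%, and 5.96% of all shared DHSs, and AAGATGG (YY1) in 2.82% against 2.64%, and 3.59% of all. TGAGTCA (AP-1) was in 1.07% against 2.08%, and 1.46% of all. TAATTA (homeodomain) was in 0.671% against 1.24%, and 0.771% of all. TGACGTCA (CRE) and the NRF1 consensus were each in 1 of 745, against 0.337% and 0.0563%, and 1.28% and 0.712% of all. GTTGCCNNGGNAAC (RFX), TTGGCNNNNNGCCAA (NFI) and the MEF2 consensus were in none, against 0.216%, 0.0204% and 0.0209%, and 0.316%, 0.0119% and 0.0514% of all. Matches of different sequences may overlap. NRF1 and CRE sites, which mark strong CpG-rich promoters, were rare at this signal with or without a footprint.

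Most footprint-free DHSs lay in single-copy sequence, as did shared DHSs as a whole. The mean share of 31-base words that occur once in the genome was 98.4% against 96.9% at matched signal, and 98.0% over all shared DHSs. In 8 of the 758 (1.06%) fewer than 50% of words were single-copy, and in 1.31% of all shared DHSs. Among those that could be matched it was 0.805%, against 2.63% at matched signal. The weakest of the 8 had no single-copy words and lay near Vmn2r35, a vomeronasal receptor gene, at chr7:7837061-7837142. Its signal was 0.0981 and 0.0788, the lowest value of the footprint-free DHSs in each library, tied in replicate 1. At Btg1, an antiproliferation gene, the share was 47.2%, the signal 0.668 and 1.15, and the neighbour 59 bp away was footprint-free as well.

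There were 37 footprint-free DHSs with no other shared DHS within 1 kb. Of these 10 were at promoters, 7 in exons, 12 in introns and 8 in intergenic DNA. They were weaker and narrower than the rest, with median signals of 0.490 and 0.654 against 0.696 and 1.10, and a median width of 126 bp against 341 bp. Their nearest footprint lay a median of 58 bp away, against 205 bp for the 721 with a neighbour. At Hivep3, a zinc finger gene, such a DHS in an intron at chr4:119814901-119815020 had 0.724 and 1.48, 18 bp from the nearest footprint, and its nearest shared DHS was 81060 bp away.

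Among the widest, the DHS at chr2:167297061-167298440, 1380 bp in width and 51432 bp from the TSS of B4galt5, had only 0.280 and 0.339. Its neighbour, 180 bp away with 0.280 and 0.347, was footprint-free too. At Mfhas1 the DHS at chr8:35588161-35589294 was 1134 bp wide and had 0.864 and 1.15, and at Smc4, a condensin subunit gene, the DHS at chr3:69005281-69006280 was 1000 bp wide and had 0.897 and 0.969. The Mfhas1 and Smc4 DHSs lay beside stronger DHSs over a TSS, and the B4galt5 one did not. The weakest by rank included 1 in an intron of Trappc9, with 0.154 and 0.0945, and 1 near Cdh5, the gene of vascular endothelial cadherin, with 0.117 and 0.126.

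By gene, 641 of the 11830 autosomal protein-coding genes with a shared promoter DHS had a footprint-free one (5.42%), 626 of them with 1 and 15 with 2. All shared promoter DHSs were footprint-free at 10 of these genes. In the housekeeping list 1 of 11 genes with a shared promoter DHS had one, Actb. The lists for interneurons, progenitors, astrocytes, the oligodendrocyte lineage, vessels and muscle had 0 of 2, 0 of 6, 0 of 4, 0 of 3, 0 of 2 and 0 of 1. With so few genes a share near the background of 5.42% cannot be told from none.

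At Actb, the beta-actin gene, the footprint-free DHS at chr5:142907021-142907322 was centred 418 bp upstream of the TSS with 1.02 and 1.69. The 2 other Actb promoter DHSs had 2.46 and 8.28 at the TSS, and 2.76 and 11.9 at 811 bp downstream. Both promoter DHSs with a footprint were stronger in each library than the one without.

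On the chromosomes the share of shared DHSs without a footprint ranged from 2.11% on chromosome 19 (17 of 806) to 4.05% on chromosome 18. The 1 Mb window with the most was on chromosome 7 from 44000001, with 9 of 69 shared DHSs. The next were on chromosome 2 from 167000001 with 6 of 51, and on chromosome 19 from 41000001 with 4 of 24.

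The footprint calls of the libraries, which the rule used, are described here without a test. Of 1751 shared DHSs without a footprint in replicate 1, 758 (43.3%) had none in replicate 2. Among those that could be matched it was 43.0%, and other shared DHSs at matched signal lacked a replicate 2 footprint in 6.17%. Of 1242 without one in replicate 2, 61.0% had none in replicate 1. Among those that could be matched it was 61.5%, against 9.34% of others at matched signal. At signal matched to the 758, other shared DHSs held a median of 2 footprints in replicate 1 and 3 in replicate 2, over 45 bases. That they hold any is the choice and not a result.

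At the limit of the rule, 11 footprint-free DHSs had a footprint within 10 bp, and 403 other shared DHSs had fewer than 10 bases under one. Just inside, the Selenon DHS at chr4:134551821-134551928, with 0.850 and 1.17, and the Ssh1 DHS at chr5:113994221-113994460, with 0.743 and 1.16, each abutted a footprint at 0 bp. Just outside, a DHS in an intron of Prkar1b at chr5:139099064-139099117, with 0.570 and 1.08, had 1 base under a footprint of replicate 2 and none of replicate 1. With footprints within 50 bp counted as well, 688 DHSs stayed footprint-free. On the autosomes, 56.6% of the footprints of replicate 1 and 55.8% of those of replicate 2 overlapped a shared DHS.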

How the data were processed

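DNase-seq calls of 2 libraries were analysed on the 19 autosomes. Per the file headers the deposited files were made separately for each library in mm10 coordinates. No aligner, caller, version or scaling is given in the sources used here. As deposited, the call lists hold the authors' signal value, a tag density. The deposited cut-rate files hold a false discovery rate (q-value) for each run of bases, given where under 0.05. The deposited footprint files carry 0.01 on every line, taken as the threshold p-value or q-value of the list. The members, gene lists, consensus sequences and comparisons were chosen with earlier results of these data known.

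Of each library's 2 call lists the shorter was used, and overlapping calls (1 bp or more) were merged. A merged interval took the highest signal of each library. Other shared DHSs were weighted over joint bins of 0.25 in log2 signal. The weighting was tried on simulated features that depended only on replicate 2 signal and on being footprint-free. That trial cannot show whether width, genomic class or neighbours are balanced. Genes and genome parts came from the GENCODE M21 basic annotation, sequences and 31-base words from RefSeq's GRCm38 assembly. No call or footprint ended beyond a chromosome of it. A promoter DHS lay within 1000 bp of the TSS of any protein-coding gene's basic transcript. Gaps between DHSs were measured to the nearest other shared DHS. Intervals are exact (Clopper-Pearson) binomial at 95%, or order-statistic intervals of a median; the limit for a count of 0 is 3 counts. They cover counting error only, take no account of shared neighbours, and give no test, since both libraries are of 1 group.

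Named DHSs were the 8 footprint-free DHSs with the highest mean rank of signal, the nearest other shared DHS of each in both signals, the strongest at promoters, those with a central CTCF match, the 3 widest, the 3 weakest and 3 on either side of the rule's limit. The Btg1 and Hivep3 DHSs were chosen after their values were seen. Not every named DHS is described, and the result of the cortical neuron list is not reported here. Printed sequences avoid UTRs. Alternatives were other footprint, overlap, list and matching rules and each library alone. Joined calls, matching among DHSs with a close neighbour, and the neighbour share as a result were added after seeing the data. Python 3.11.15, numpy 2.4.6, pandas 2.3.3, scipy 1.17.1, pysam 0.24.0 and numba 0.67.0 were used.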

Additional observations from a re-analysis of the deposited data

How the results depend on the processing

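The 5 differences between footprint-free and matched DHSs given here kept their direction in all the alternatives run for them. These were 44.1 percentage points for the promoter share, -8.17 for CTCF, 1.51 for single-copy words, 6 for median GC and 62.7 for a neighbour within 1 kb. With the lenient call lists 1612 DHSs were footprint-free and the differences were 28.1, -5.56, 0.737, 2.67 and 34.0, in the same order. With the stronger 50% of calls the number was 132 and they were 47.1, -12.1, 0.436 (interval -0.135 to 1.01), 9 and 74.5. With calls up to 150 bp apart joined the number was 487 and the promoter, CTCF, word and neighbour differences were 49.9997, -8.55, 2.32 and 71.1. With width added to the matching the promoter, CTCF, GC and neighbour differences were 34.2, -3.22, 3.33 and 57.6. Among DHSs with a close neighbour the promoter, CTCF and GC differences were 18.8, -1.19 and 0.667 (interval for GC 0 to 2). The CTCF and neighbour differences were -8.97 and 59.9 with nearest pairs and -8.47 and 64.1 with 50% overlap of calls, and the neighbour difference was 64.5 when footprints within 50 bp counted. With 1 library left out, the number ranged from 5344 (without replicate 1) to 21163 (without replicate 2), and the differences from 8.16 to 27.7, -4.70 to -1.65, 0.466 to 0.670, 0.667 to 3.33 and 7.29 to 36.7. These last sets hold all calls of 1 library, 43815 and 55508, and so differ in what is counted. No paired analysis was possible because there is 1 group. Within promoters, which was no such alternative, the median GC difference was -1.33. No footprint means none in the deposited lists; depth was not varied, and the cause of the differences was not tested.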
